A study of Mus musculus with 40 samples.

Results

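The genes described here are the D-type cyclins Ccnd1, Ccnd2 and Ccnd3, their kinases Cdk4 and Cdk6, the kinase inhibitors Cdkn1a, Cdkn1b, Cdkn1c and Cdkn2c, and the retinoblastoma gene Rb1. They were chosen by symbol for their part in the G1 phase and in cell cycle exit, and they are 10 of the 55487 genes in the deposited count table. Each symbol matched a single Ensembl gene. In a dividing cell, D-type cyclins bind Cdk4 or Cdk6, and the kinase complexes phosphorylate the Rb1 protein, which releases E2F transcription factors and lets the cell enter S phase. Mitogens raise the D cyclins, while the CDKN1 proteins and the INK4 protein of Cdkn2c restrain the kinases. In the developing nervous system D cyclins are known from cycling progenitors, and CDKN1 proteins accompany the exit of neurons from the cycle.

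Polyadenylated RNA was sequenced from 40 libraries of about 200 sorted cells each, with 4 biological replicates, lettered A to D, per cell type (ES-astrocytes or ES-motor neurons) and treatment (5 in number). The cells were differentiated from a mouse embryonic stem cell line, made from B6.Cg-Tg(Hlxb9-GFP)1Tmj/J mice, in which the promoter of Hb9 (Mnx1) drives eGFP, and retinoic acid and a smoothened agonist were used for all groups. ES-astrocytes were expanded with the growth factors bFGF and EGF and then differentiated, with forskolin according to the study's methods, before the stimulus. ES-motor neurons were sorted for eGFP and plated on top of the ES-astrocytes. The treatments, given to the ES-astrocytes for 24 h, were a control medium, IL-1α with TNF-α, C1Q with C5, IL-1β with IL-6, and TGF-β2. An ES-motor neuron library of a treatment therefore comes from neurons cultured on ES-astrocytes that had received that treatment. All groups share the line, the transgene and the co-culture, and the line is a single source, so that the replicates do not sample different animals.

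The ES-astrocyte libraries held 1510823 to 16054290 counts (median 4670242), and the ES-motor neuron libraries 6557 to 19717324 (median 1213482). Levels are given as counts scaled to a common library total (CPM), with TMM factors from all 40 libraries. Where a library had no counts of a gene, up to 3 counts were allowed for, which is 0.230 to 2.04 CPM in an ES-astrocyte library and 0.153 to 203 CPM in an ES-motor neuron library. These limits, and the intervals below, cover counting error only. Of the 40 libraries, 9 held under 20% of the median total, and all 9 were of ES-motor neurons. They were the 4 with IL-1α and TNF-α, replicates B and D with IL-1β and IL-6, control C, TGF-β2 A, and C1Q with C5 A, which had the 6557 counts.

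Libraries also differed in the share of counts on genes whose longest transcript exceeds 4000 bases. The share was under 28% in 6 libraries and 28.3% to 43.5% in the others. The 6 were ES-astrocyte control A (18.4%), IL-1α with TNF-α B (26.9%), C1Q with C5 B (27.5%) and TGF-β2 A (26.2%), and ES-motor neuron IL-1α with TNF-α A (23.5%) and IL-1β with IL-6 A (24.7%). Fits without these, or without the shallow libraries, were run where each group of a comparison kept at least 2 libraries, and in any case over the 5 treatments, where no ES-motor neuron library with IL-1α and TNF-α remains without the shallow ones. The sample sheet puts control and IL-1α with TNF-α on plate 1 and the other 3 stimuli on plate 2, so that for those stimuli plate and treatment cannot be told apart. The second index primers differed between the cell types throughout, so that primer and cell type cannot be told apart.

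The labels were checked against marker lists. Summed CPM of 8 motor neuron markers ran from 650 to 4749 in ES-motor neurons (median 989) and from 15.7 to 109 in ES-astrocytes (median 39.2). The most abundant was Mnx1 (mean 1055 CPM in ES-motor neurons), whose promoter drives the reporter used for the sort. Without Mnx1 the sum in ES-motor neurons ran from 0 to 734 CPM (median 383). Without Isl1, their top gene of the list, ES-astrocytes had 0.078 to 97.0 CPM (median 18.9). By the calls defined below, 7 of the 8 were higher in ES-motor neurons over the 5 treatments. Lhx3 was not called (log2 fold change −0.40, edgeR adjusted p 0.818). Of 11 astrocyte and radial glia markers, 8 were detected in ES-astrocytes, with summed CPM from 1199 to 3562 (median 2334) and Fabp7 highest (mean 1430). Gfap, Aqp4 and Aldh1l1, markers of mature astrocytes, were at 0 in all 20 ES-astrocyte libraries. The same list summed to 67.6 to 1220 CPM in ES-motor neurons (median 814), with Vim highest (mean 467). In ES-motor neurons Sox9 had a median of 273 CPM against 76.8 in ES-astrocytes.

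ES-astrocyte libraries also carried neuronal RNA. Summed CPM of 10 neuronal markers ran from 2121 to 4698 (median 3247, Stmn2 highest), against 3784 to 13230 in ES-motor neurons (median 8962, Stmn2 highest). Fibroblast markers, 7 genes, summed to 37.0 to 1122 CPM in ES-astrocytes (median 203, Dcn highest, Postn at 0) and to 5.92 CPM at most in ES-motor neurons. Lists for the oligodendrocyte lineage (at most 45.7 CPM in ES-astrocytes, against 36.7 in ES-motor neurons, with Sox10 at 0 in ES-astrocytes and Olig1 and Cspg4 at 0 in ES-motor neurons), microglia (at most 16 and 21.9 CPM, Csf1r highest, with Aif1 and P2ry12 at 0 in both) and pluripotent cells (at most 1.35 and 4.14 CPM, with Pou5f1 and Zfp42 at 0 in both) stayed low. The part of such cell mixtures in the results was not tested. In bulk libraries fewer cells of a type and less RNA per cell cannot be told apart.

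The cell types were compared first among the 4 control libraries of each, and then in all 40 libraries, in a fit that allows for the 5 treatments. A call needed an edgeR p of at most 0.05 after Benjamini-Hochberg adjustment over all genes tested, together with a log2 fold change beyond 1 in size. In the control libraries 8 members passed the filter on low counts and 4 were called, all lower in ES-motor neurons. Of all 10199 genes tested, 2.24% were called, and 1.67% were called as lower. Over the 5 treatments all 10 members passed the filter and 6 were called, again all lower in ES-motor neurons, where 14.9% of 13227 genes were called and 11% were called as lower. Of the 6, Cdkn2c passed the filter through ES-astrocytes alone, with 1 count in all 20 ES-motor neuron libraries. It could therefore only come out lower, and the median over the 5 treatments includes it. The median log2 fold change of the members was −1.89 in the control libraries, against −0.20 over all genes tested, and −2.17 over the 5 treatments, against −0.21.

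The 6 members called over the 5 treatments were Ccnd1, Ccnd2, Cdk6, Cdkn1a, Cdkn1c and Cdkn2c. Without the 9 shallow libraries, which takes away all 4 ES-motor neuron libraries with IL-1α and TNF-α and leaves the difference to rest on the other 4 treatments, the count was 6 as well (1641 genes called of all), and so was it without the 6 libraries of low long-gene share (1808 genes) and by DESeq2 (1846 genes). In the control comparison edgeR called 228 genes, and leaving out any 1 of the 8 libraries moved that number by more than 1.5 times. It was 401 without ES-astrocyte A, 125, 132 and 134 without B, C and D, and 101, 72, 81 and 86 without ES-motor neuron A, B, C and D. In each of these fits 3 members were called in place of 4.

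Ccnd1 (ENSMUSG00000070348, chr7:144929931-144939925, minus strand, GENCODE M21 on GRCm38) encodes cyclin D1, the D cyclin best known as a target of mitogen signals. In the control libraries, replicates A to D, its level was 281, 324, 260 and 320 CPM in ES-astrocytes and 8.15, 2.10, 7.70 and 17.2 CPM in ES-motor neurons. Every ES-astrocyte value was above every ES-motor neuron value. edgeR gave a log2 fold change of −5.07 (SE 0.64, adjusted p 0.00318), lower in 4 of 4 ES-motor neuron libraries. Across the 5 treatments the lowest, median and highest levels were 98.2, 278 and 647 CPM in 20 ES-astrocyte libraries and 0, 4.65 and 34.7 CPM in 20 ES-motor neuron libraries. The ranges did not overlap, as was so for 0.771% of all genes tested, and 4 ES-motor neuron libraries were at 0. Of these, C1Q with C5 A had a limit of 203 CPM, above the lowest ES-astrocyte value, so that 19 of 20 lay below that value with the limits allowed for. Without the 9 shallow libraries the highest ES-motor neuron level was 17.2 CPM. The fit gave −5.73 on the log2 scale (SE 0.32, edgeR adjusted p 1.7e-19), with 20 of 20 ES-motor neuron libraries below the ES-astrocyte median.

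Ccnd2 (ENSMUSG00000000184, chr6:127125162-127152193, minus strand) encodes cyclin D2. Control libraries had levels of 728, 909, 578 and 631 CPM in ES-astrocytes and 6.34, 1.48, 11.5 and 1.43 CPM in ES-motor neurons. The groups were far apart, with no overlap. The fitted log2 fold change was −7.68 (SE 0.74, edgeR adjusted p 0.000472), lower in 4 of 4 libraries. In all 40 libraries the lowest, median and highest levels were 453, 856 and 1435 CPM in ES-astrocytes and 0, 5.11 and 21.1 CPM in ES-motor neurons. Here too the ranges did not overlap, and 4 ES-motor neuron libraries were at 0. edgeR gave a log2 fold change of −7.08 (SE 0.33, adjusted p 8.2e-22), lower in 20 of 20 libraries. Ccnd1 and Ccnd2 were the only members whose 20 and 20 libraries did not overlap in CPM. Without the shallow libraries Ccnd1, Ccnd2 and Cdk6 did not, as was so for 1.34% of all genes tested.

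Ccnd3 (ENSMUSG00000034165, chr17:47505051-47599691, plus strand) encodes cyclin D3, and its counts came from few libraries. In the control libraries 639 counts (68.5 CPM) lay in ES-astrocyte A and none in the other 7, so that the exact two-sided permutation test gave p 1. Over all libraries there were 1296 counts from 11 of 20 ES-astrocyte libraries, while 3 of 20 ES-motor neuron libraries held 221 counts, a ratio of 3.25 (95% counting interval 2.81 to 3.76). It rested on single libraries, being 1.79 without ES-astrocyte control A and 13.9 without ES-motor neuron IL-1β with IL-6 A, values that were looked at after seeing the data. Of the 221 counts, 182 lay in IL-1β with IL-6 A and 38 in TGF-β2 C. The fit over the 5 treatments gave a log2 fold change of −2.45 (SE 1.42, edgeR adjusted p 0.268), which did not pass. The ES-astrocyte libraries of low long-gene share had 18.1 to 68.5 CPM of Ccnd3 and the other 16 had 0 to 9.45 CPM.

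Among the D cyclins of an ES-astrocyte library, Ccnd2 gave 48.6% to 82.9% of the summed CPM per kilobase (median 63.4%), Ccnd1 17.1% to 51.4% (median 35.7%) and Ccnd3 0% to 8.54% (median 0.524%). These shares use the longest transcript of each gene. Per kilobase the mean level in ES-astrocytes was 135 ± 46.6 CPM (SD, n = 20) for Ccnd2 and 77.6 ± 30.8 for Ccnd1. In ES-motor neurons it was 1.01 ± 0.971 for Ccnd2 and 1.71 ± 2.10 for Ccnd1.

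Cdk4 (ENSMUSG00000006728, chr10:127063534-127067920, plus strand) encodes a kinase activated by all D cyclins. Replicates A to D of the control had levels of 2172, 403, 641 and 466 CPM in ES-astrocytes and 390, 625, 227 and 300 CPM in ES-motor neurons. The groups overlapped, and ES-astrocyte A stood above all others. On the log2 scale the difference was −1.25 (SE 0.59, edgeR adjusted p 0.495), and −0.32 without that library, the library of lowest long-gene share. With every treatment included, the lowest, median and highest levels were 283, 518 and 2172 CPM in ES-astrocytes and 135, 287 and 1044 CPM in ES-motor neurons. Of 20 ES-motor neuron libraries, 17 were below the ES-astrocyte median and 10 reached the lowest ES-astrocyte value. The fitted log2 fold change was −0.86 (SE 0.24, edgeR adjusted p 0.00682), which is under the fold threshold. The adjusted p was 0.106 without replicate B, 0.0531 without replicate C, 0.136 without the shallow libraries (log2 fold change −0.68), and 0.00697 without the libraries of low long-gene share (log2 fold change −0.66).

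Levels of Cdk4 differed between libraries of low and of higher long-gene share, at the limit of 28%, which was chosen after seeing the data. The 4 ES-astrocyte libraries with a long-gene share under 28% had 1061 to 2172 CPM (median 1258), and the other 16 had 283 to 970 CPM (median 471). The 2 such ES-motor neuron libraries had 924 and 1044 CPM, against 135 to 625 CPM in the other 18. The ranges did not overlap in either cell type. Of 13227 genes, 2.83% did not overlap at this limit in ES-astrocytes, 7.60% did not in ES-motor neurons, and 1.35% did not in both with the same direction.

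Cdk6 (ENSMUSG00000040274, chr5:3341485-3531008, plus strand) encodes the second kinase of the D cyclins. Levels in the control were 143, 387, 749 and 326 CPM in ES-astrocytes and 9.96, 2.15, 7.70 and 0 CPM in ES-motor neurons. All ES-astrocyte values were above all ES-motor neuron values, although ES-astrocytes differed several-fold among themselves. edgeR gave a log2 fold change of −6.69 (SE 1.00, adjusted p 0.00816), lower in 4 of 4 libraries. Across the 5 treatments the lowest, median and highest levels were 31.7, 429 and 788 CPM in ES-astrocytes and 0, 8.49 and 34.7 CPM in ES-motor neurons. The ranges met in a single pair of libraries, ES-astrocyte C1Q with C5 D (31.7 CPM) and ES-motor neuron IL-1α with TNF-α D (34.7 CPM), which is a shallow library. Without the shallow libraries the highest ES-motor neuron level was 22.6 CPM and the ranges did not overlap. With limits allowed for, 17 of 20 ES-motor neuron libraries lay below the lowest ES-astrocyte value. On the log2 scale the difference was −5.84 (SE 0.44, edgeR adjusted p 4.0e-14), with 20 of 20 ES-motor neuron libraries below the ES-astrocyte median. Within each treatment alone Cdk6 was called, with log2 fold changes from −6.83 to −4.92. In the control comparison it was −7.09 without ES-astrocyte A and −6.77 without the shallow library C of ES-motor neurons (adjusted p 0.000740 and 0.0419).

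Per kilobase of the longest transcript, Cdk6 gave 1.16% to 31.7% (median 13.5%) of the sum of Cdk4 and Cdk6 in ES-astrocytes and 0% to 3.0% (median 0.306%) in ES-motor neurons. The mean levels per kilobase were 332 ± 225 CPM (SD, n = 20) for Cdk4 and 38.6 ± 20.1 for Cdk6 in ES-astrocytes, and 182 ± 117 and 0.742 ± 0.803 in ES-motor neurons. Cdk4 was thus the higher of the pair in both cell types on this scale.

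**Figure D1:**
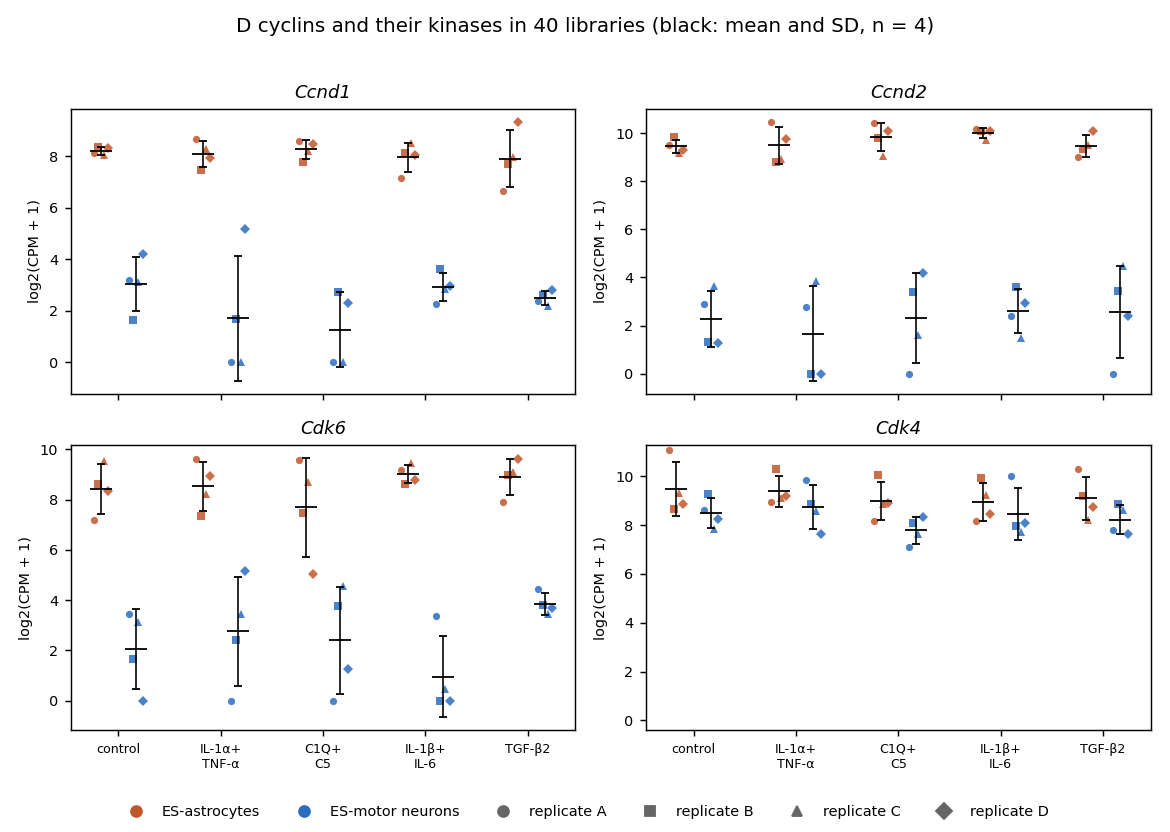
Levels of Ccnd1, Ccnd2, Cdk6 and Cdk4 as log2(CPM + 1) in each of the 40 libraries by treatment, ES-astrocytes in orange and ES-motor neurons in blue, with a marker shape per replicate letter and the mean and SD of 4 libraries in black. Ccnd1 and Ccnd2 do not overlap between the cell types (lowest ES-astrocyte values 98.2 and 453 CPM, highest ES-motor neuron values 34.7 and 21.1 CPM), while Cdk4 does.

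Cdkn1a (ENSMUSG00000023067, chr17:29090976-29100727, plus strand) encodes p21, an inhibitor that is a known target of p53. Control libraries had levels of 186, 77.3, 72.3 and 66.7 CPM in ES-astrocytes and 31.7, 43.0, 11.5 and 31.0 CPM in ES-motor neurons. The groups did not overlap, with ES-astrocyte A the highest. The log2 fold change of −1.73 (SE 0.55) was lower in 4 of 4 libraries but did not pass in edgeR (adjusted p 0.184), whereas DESeq2 called it (log2 fold change −1.74, adjusted p 0.0372). In all 40 libraries the lowest, median and highest levels were 33.4, 84.6 and 186 CPM in ES-astrocytes and 0, 13.1 and 77.1 CPM in ES-motor neurons. Of the ES-motor neuron libraries 19 were below the ES-astrocyte median, and the other, C1Q with C5 A, was at 0 with a limit of 203 CPM. The lowest ES-astrocyte value was reached by 5. The fitted log2 fold change was −1.89 (SE 0.36, edgeR adjusted p 7.5e-05). By treatment edgeR called it with TGF-β2 (log2 fold change −2.79, adjusted p 0.0185) and with C1Q and C5 (−2.44, 0.0349) but not with IL-1α and TNF-α (−1.41, 0.533) or IL-1β and IL-6 (−0.995, 0.965), and no interaction of a stimulus with the cell type was called for it. Both calls rested on single libraries. With TGF-β2 the adjusted p was 0.0793 without the shallow ES-motor neuron A and 0.0558 without ES-astrocyte A, of low long-gene share. With C1Q and C5 it was 0.0573 without the shallow ES-motor neuron A and 0.152 without ES-astrocyte B, of low long-gene share. In the control comparison without ES-astrocyte A the log2 fold change was −1.19.

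Cdkn1b (ENSMUSG00000003031, chr6:134920401-134925513, plus strand) encodes p27, an inhibitor known from quiescent and postmitotic cells. Replicates A to D of the control had levels of 1.82, 1345, 308 and 927 CPM in ES-astrocytes and 845, 429, 289 and 901 CPM in ES-motor neurons. The groups overlapped, and ES-astrocyte A was far below all other control libraries. edgeR gave a log2 fold change of −0.05 (SE 1.07, adjusted p 0.997). Without ES-astrocyte A it was −0.43, and without B it was 0.67, so that its sign rested on single libraries. With every treatment included, the lowest, median and highest levels were 1.82, 426 and 1345 CPM in ES-astrocytes and 47.4, 491 and 1040 CPM in ES-motor neurons. The ranges overlapped almost wholly, with 9 of 20 ES-motor neuron libraries below the ES-astrocyte median. On the log2 scale the difference was −0.11 (SE 0.38, edgeR adjusted p 0.898).

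Cdkn1b differed in the other direction. The 4 such ES-astrocyte libraries had 1.82 to 265 CPM (median 177), and the other 16 had 249 to 1345 CPM (median 744). The 2 such ES-motor neuron libraries had 47.4 and 72.8 CPM, against 67.6 (1 count in the shallow C1Q with C5 A) to 1040 CPM (median 619) in the other 18. In the same 6 libraries, then, Cdk4 was above and Cdkn1b below the median of the other libraries of the cell type. Without them the log2 fold change of Cdkn1b over the 5 treatments was −0.21 (edgeR adjusted p 0.670), and without the shallow libraries it was 0.00562 (0.997). Medians of other members were also apart at the limit of 28%, which was not tested. Cdkn1c had a median of 182 CPM in the 4 ES-astrocyte libraries and 79.8 in the other 16, and 72.6 and 148 CPM in the 2 ES-motor neuron libraries against 0 to 57.5 in the other 18. In ES-astrocytes the medians were 161 and 77.1 CPM for Cdkn1a, 167 and 499 for Cdk6, and 34.5 and 56.8 for Rb1. They were 195 and 301 CPM for Ccnd1, 620 and 886 for Ccnd2, and 5.21 and 0.594 for Cdkn2c. Of the members, only Ccnd3 and Cdk4 had ranges in ES-astrocytes that did not overlap at this limit, so that these medians are a description. The part of library composition in the levels of these genes was not tested.

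**Figure D2:**
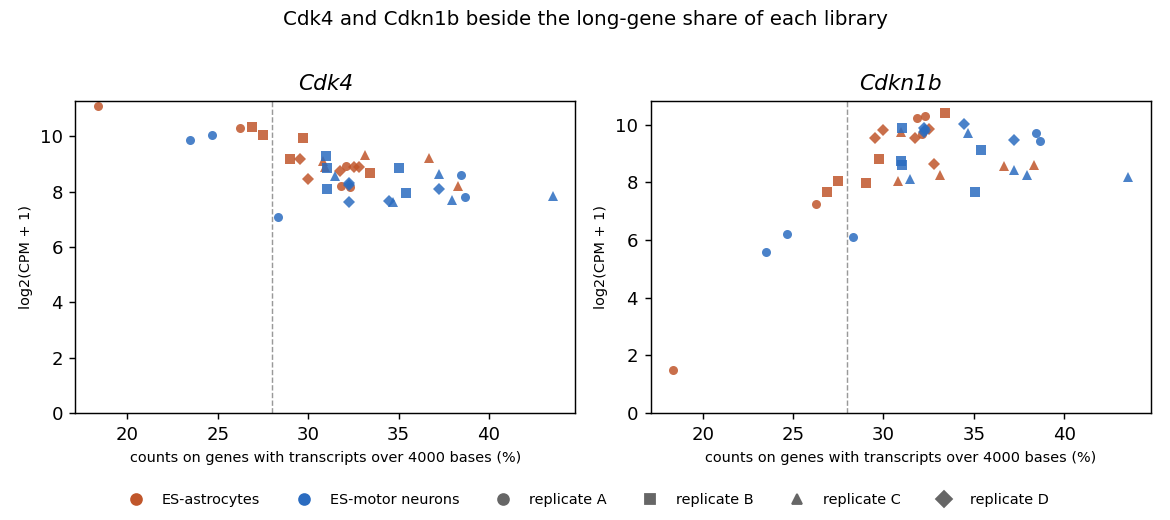
Levels of Cdk4 and Cdkn1b as log2(CPM + 1) in the 40 libraries against the percentage of counts on genes with a longest transcript over 4000 bases, ES-astrocytes in orange and ES-motor neurons in blue, with a dashed line at 28%. Left of the line Cdk4 lies between 924 and 2172 CPM and Cdkn1b between 1.82 and 265 CPM. Counts of Cdkn1b enter this percentage and those of Cdk4 do not.

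Cdkn1c (ENSMUSG00000037664, chr7:143458339-143461050, minus strand) encodes p57, an imprinted inhibitor of the same family. Levels in the control were 270, 103, 115 and 104 CPM in ES-astrocytes and 38.0, 29.5, 30.8 and 42.5 CPM in ES-motor neurons. The groups did not overlap. The fitted log2 fold change was −2.05 (SE 0.47, edgeR adjusted p 0.0465), lower in 4 of 4 libraries. Leaving out any 1 of the 8 libraries gave an adjusted p between 0.0524 and 0.174, so that the call rested on each of them. With the replicate letter as a block it was 0.203, so that Cdkn1c was not called there either. Across the 5 treatments the lowest, median and highest levels were 12.7, 93.6 and 270 CPM in ES-astrocytes and 0, 36.0 and 148 CPM in ES-motor neurons. The ranges overlapped, with 18 ES-motor neuron libraries at or above the lowest ES-astrocyte value and 18 of 20 below the ES-astrocyte median when a 0 is set to its limit. edgeR gave a log2 fold change of −1.22 (SE 0.28, adjusted p 0.000806), and −1.04 (0.0253) without the shallow libraries. Of the 5 treatments alone, Cdkn1c was called in the control and not with C1Q and C5 (adjusted p 0.108, log2 fold change −1.80), TGF-β2 (0.773, −0.75), IL-1α and TNF-α (0.734, −1.04) or IL-1β and IL-6 (0.989, −0.32).

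Of the 8 members that passed the filter without stimulus, 5 had groups that did not overlap in CPM, namely Ccnd1, Ccnd2, Cdk6, Cdkn1a and Cdkn1c, and 10.7% of all genes tested had the same. Cdkn2c, which did not pass the filter, had no overlap either. Its ES-motor neuron values were all 0, with limits of 2.72, 0.153, 11.5 and 1.43 CPM in replicates A to D. With these limits allowed for, its groups overlap.

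Cdkn2c (ENSMUSG00000028551, chr4:109660876-109667189, minus strand) encodes p18, an INK4 inhibitor that binds Cdk4 and Cdk6 themselves. In the control libraries it had 205 counts in ES-astrocytes, 178 of them in B. ES-motor neurons had 0, which is at least 54.3-fold lower when the 4 libraries together are set to 3 counts, and at least 43.8-fold at the lower counting limit of the ES-astrocyte counts. This bound rested on single libraries. It was at least 11.6-fold without ES-astrocyte B and at least 8.16-fold without ES-motor neuron B, as was looked at after seeing the data. All 4 ES-astrocyte libraries held counts (2.14, 16.1, 1.10 and 0.686 CPM), and the exact two-sided permutation test gave p 0.0286, the smallest that 4 against 4 libraries allow. Over all libraries there were 1005 counts in 14 of 20 ES-astrocyte libraries, 368 of them in IL-1α with TNF-α A, and 1 count in ES-motor neurons. The ratio was 556 (95% counting interval 99.6 to 21998), and at least 140 without ES-motor neuron IL-1β with IL-6 A, which held the 1 count. The fitted log2 fold change of −6.94 (SE 1.14, edgeR adjusted p 5.2e-06) depends on the prior count. Over 13 alternatives it ran from −7.69 to −3.87, and in 1 of them the call was lost. The levels in ES-astrocytes were low, at most 28.2 CPM with a median of 0.958, and 16 of 20 ES-motor neuron libraries had limits above that median, so that a level near that median could be missed in them.

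Rb1 (ENSMUSG00000022105, chr14:73183673-73325822, minus strand) encodes the pocket protein that the D cyclin kinases phosphorylate. Control libraries had levels of 24.0, 82.5, 79.6 and 86.0 CPM in ES-astrocytes and 50.7, 38.1, 65.4 and 18.1 CPM in ES-motor neurons. The groups overlapped through ES-astrocyte A alone. On the log2 scale the difference was −0.65 (SE 0.58, edgeR adjusted p 0.814), and −0.93 (0.465) without that library. In all 40 libraries the lowest, median and highest levels were 24.0, 47.8 and 86.0 CPM in ES-astrocytes and 0, 27.3 and 65.4 CPM in ES-motor neurons. Of 20 ES-motor neuron libraries, 13 were below the ES-astrocyte median when a 0 is set to its limit. The fitted log2 fold change was −0.60 (SE 0.26, edgeR adjusted p 0.114), which did not pass.

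**Figure D3:**
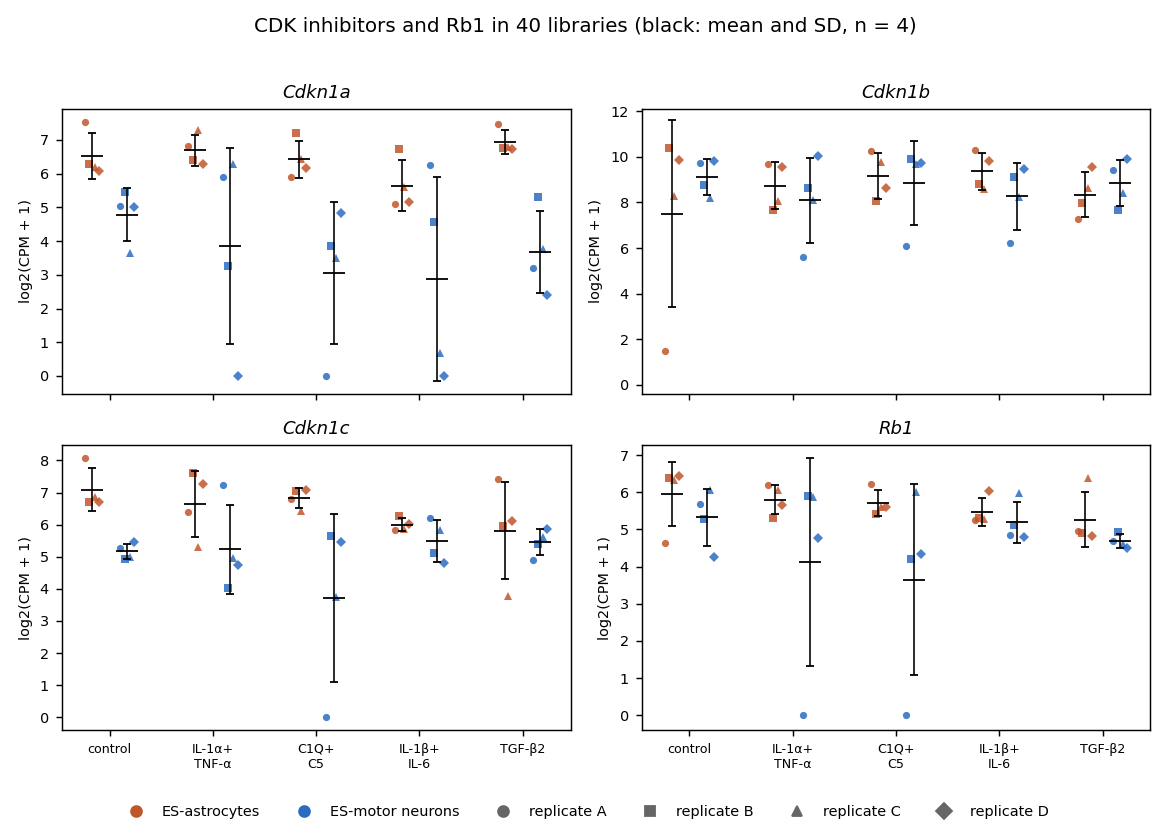
Levels of Cdkn1a, Cdkn1b, Cdkn1c and Rb1 as log2(CPM + 1) in each of the 40 libraries by treatment, ES-astrocytes in orange and ES-motor neurons in blue, with a marker shape per replicate letter and the mean and SD of 4 libraries in black. The cell types overlap for all of them, and Cdkn1b spans 1.82 to 1345 CPM within the control ES-astrocytes.

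Levels of different genes were compared per kilobase of the longest transcript. In ES-astrocytes the order of mean CPM per kilobase was Cdk4 (332), Ccnd2 (135), Cdkn1b (130), Ccnd1 (77.6), Cdkn1c (54.9), Cdkn1a (45.9), Cdk6 (38.6), Rb1 (11.3), Ccnd3 (2.35) and Cdkn2c (2.16). The spread was wide, with an SD over 20 libraries of 225 for Cdk4, 46.6 for Ccnd2 and 87.4 for Cdkn1b, so that Ccnd2 and Cdkn1b did not differ beyond it. In ES-motor neurons the order was Cdk4 (182 ± 117), Cdkn1b (118 ± 73.1), Cdkn1c (21.8), Cdkn1a (11.4), Rb1 (7.13), Ccnd1 (1.71), Ccnd2 (1.01), Cdk6 (0.742), Ccnd3 (0.573) and Cdkn2c (0.00129). With the merged exons as the length, Cdkn1b (130) came before Ccnd2 (91.1) in ES-astrocytes and before Cdk4 (115) in ES-motor neurons. In ES-astrocytes Cdk6 (31.8) then came before Cdkn1a (26.8), and Cdkn2c (1.98) before Ccnd3 (1.03).

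Each of the 4 stimuli was compared with the control within each cell type, which asks whether it moved the members in the treated ES-astrocytes or in the neurons on top of them. In ES-astrocytes edgeR called 0% of genes, and no member, for each stimulus. The members that passed the filter numbered 9, 10, 9 and 9. The genes at an unadjusted p under 0.05 numbered 93 of 10444 with IL-1α and TNF-α, 106 of 10865 with C1Q and C5, 119 of 10240 with IL-1β and IL-6 and 136 of 10794 with TGF-β2, where DESeq2 called 25, 40, 56 and 58. DESeq2 called 0 members in each of them, and 1 member had an unadjusted p under 0.05 in 1 of them. The 4 comparisons share their control libraries. In each, the genes at an unadjusted p under 0.05 were fewer than a share of 0.05 of those tested, the share that no effect would give. The absence of a call therefore does not show the absence of a response. The members' median log2 fold changes were −0.03, −0.16, −0.18 and −0.46 in the same order, and those of all genes tested were −0.08, −0.07, −0.07 and −0.06.

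In the order IL-1α with TNF-α, C1Q with C5, IL-1β with IL-6 and TGF-β2, the edgeR log2 fold changes in ES-astrocytes were as follows for the cyclins and kinases: Ccnd1 (−0.03, 0.11, −0.18 and 0.06), Ccnd2 (0.22, 0.50, 0.57 and 0.11), Ccnd3 (not tested, −0.85, not tested and −0.94), Cdk4 (−0.31, −0.65, −0.72 and −0.46) and Cdk6 (0.15, −0.20, 0.40 and 0.41). For the inhibitors and Rb1 they were Cdkn1a (0.12, −0.12, −0.85 and 0.37), Cdkn1b (−0.29, 0.12, 0.24 and −0.71), Cdkn1c (−0.30, −0.33, −1.21 and −0.85), Cdkn2c (0.92, −0.04, −0.17 and not tested) and Rb1 (−0.23, −0.34, −0.59 and −0.65). All had an adjusted p of 1.00, and not tested marks a member that did not pass the filter.

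The member with an unadjusted p under 0.05 was Cdkn1c with IL-1β and IL-6. Its levels were 56.1, 76.4, 57.1 and 64.3 CPM, against 270, 103, 115 and 104 CPM in the control. The groups did not overlap, as was so for 1.84% of all genes tested in this comparison, and the stimulated group was the lower. The log2 fold change of −1.21 (SE 0.43), lower in 4 of 4 libraries, had an edgeR p of 0.0181 and an adjusted p of 1.00, so that it did not pass. With 1 library left out at a time it ran from −1.36 to −0.74.

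In ES-motor neurons edgeR called 0% of 4479, 7348 and 8327 genes with IL-1α and TNF-α, C1Q and C5, and IL-1β and IL-6, and 0.0126% of 7947 genes (1 gene, not a member) with TGF-β2. The members that passed the filter numbered 5, 6, 7 and 6, and edgeR called 0 of them, with 0 at an unadjusted p under 0.05 and 0 by DESeq2. Over all genes 143, 322, 98 and 221 had an unadjusted p under 0.05, and DESeq2 called 1, 0, 1 and 17. The members' median log2 fold changes were 0.51, −0.24, −0.12 and −0.23, beside 0.03, −0.06, −0.01 and 0.00 over all genes tested. All 4 libraries with IL-1α and TNF-α were shallow. In ES-motor neurons too, the genes at an unadjusted p under 0.05 were fewer than a share of 0.05 of those tested for each stimulus. Members that did not pass the filter in a comparison were tested by an exact permutation of their CPM, in 17 cases with a p, of which 1 (Cdkn2c between the control cell types) was under 0.05.

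By member, in the same order of stimuli, the log2 fold changes in ES-motor neurons were Ccnd1 (not tested, not tested, −0.54 and not tested), Ccnd2 (not tested, not tested, 0.03 and not tested), Cdk4 (0.59, −0.63, 0.22 and −0.29), Cdk6 (not tested, 1.41, not tested and 1.61) and Cdkn1a (0.51, −0.84, −0.14 and −0.85). The rest were Cdkn1b (−0.33, 0.27, −0.53 and −0.16), Cdkn1c (0.84, −0.07, 0.50 and 0.32) and Rb1 (−0.01, −0.41, −0.12 and −0.79), with an adjusted p of at least 0.989 for every member. Ccnd3 and Cdkn2c passed the filter for no stimulus there.

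Means by treatment are given by the lowest and the highest. In ES-astrocytes the mean of Ccnd1 ran from 260 ± 90.5 CPM (SD, n = 4) with IL-1β and IL-6 to 312 ± 72.9 with C1Q and C5, a ratio of 1.20. Ccnd2 ran from 711 ± 145 in the control to 1041 ± 132 with IL-1β and IL-6. Ccnd3 ran from 1.57 ± 3.13 with IL-1β and IL-6 to 17.1 ± 34.2 in the control, each from a single library. The kinase Cdk6 ran from 344 ± 317 with C1Q and C5 (207 without replicate A) to 526 ± 135 with IL-1β and IL-6. Its partner Cdk4 had its highest mean, 920 ± 840, in the control, where replicate A set it, and its lowest, 551 ± 310, with IL-1β and IL-6.

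Among the inhibitors in ES-astrocytes, Cdkn1a was lowest with IL-1β and IL-6 (55.1 ± 33.5 CPM) and highest with TGF-β2 (125 ± 34.4). Cdkn1b ran from 384 ± 259 with TGF-β2 to 746 ± 409 with IL-1β and IL-6. Cdkn1c ran from 63.5 ± 9.35 with IL-1β and IL-6 to 148 ± 81.3 in the control. With TGF-β2 the mean of Cdkn1c was 78.1, but 47.2 without replicate A, which is under that lowest mean. None of these differences between a stimulus and the control was called, and 2 stimuli were not tested against each other. Cdkn2c ran from 3.50 ± 6.31 with TGF-β2 (0.351 without replicate B) to 9.25 ± 13.2 with IL-1α and TNF-α (2.93 without replicate A). Rb1 ran from 42.2 ± 26.9 with TGF-β2 to 68.1 ± 29.5 in the control.

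In ES-motor neurons Cdk4 ran from 230 ± 80.5 CPM with C1Q and C5 to 491 ± 309 with IL-1α and TNF-α. Cdkn1b ran from 412 ± 282 with IL-1β and IL-6 to 674 ± 407 with C1Q and C5. Cdkn1a ran from 12.8 ± 11.4 with C1Q and C5 (7.94 without replicate D) to 36.2 ± 37.8 with IL-1α and TNF-α (22.6 without replicate C). Cdkn1c ran from 26.1 ± 23.7 with C1Q and C5 to 54.8 ± 62.5 with IL-1α and TNF-α (23.8 without replicate A), and Rb1 from 24.8 ± 3.55 with TGF-β2 to 43.1 ± 20 in the control. Zeros of shallow libraries entered these means as 0, so that they can be too low.

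The D cyclins and Cdk6 were low in every group of ES-motor neurons. Ccnd1 ran from 2.37 ± 2.82 CPM with C1Q and C5 (1.29 without replicate B) to 9.21 ± 17 with IL-1α and TNF-α (0.720 without replicate D). Ccnd2 ran from 4.83 ± 6.37 with IL-1α and TNF-α (1.97 without replicate C) to 8.81 ± 9.12 with TGF-β2 (4.72 without replicate C). Ccnd3 ran from 0 in the control and with C1Q and C5 to 6.67 ± 13.3 with TGF-β2, all of it in replicate C, and Cdkn2c was at 0 apart from the 1 count with IL-1β and IL-6. The highest treatment means of Ccnd1, Ccnd2 and Cdk6 were under every treatment mean of the same gene in ES-astrocytes. In each cell type, for each of the 10 members, treatments next to each other in the order of means differed by no more than the larger of their SDs. The lowest and the highest mean were further apart than that for Ccnd2, Cdkn1a and Cdkn1c in ES-astrocytes and for Cdk6 in ES-motor neurons (2.42 ± 4.58 CPM with IL-1β and IL-6, 0.133 without replicate A, to 13.9 ± 4.73 with TGF-β2). The low mean of Cdk6 includes zeros in the shallow replicates B and D, whose limits of 33.9 and 20.1 CPM lie above the high mean, so that the ends need not differ. For Cdkn1c in ES-astrocytes the ends were 84.5 CPM apart, beside a larger SD of 81.3. Its high mean, that of the control, was 107 CPM without replicate A, which is under the 117 ± 69.4 with IL-1α and TNF-α. The distance for Cdkn1c therefore rested on that library.

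The difference of a stimulus effect between the cell types was tested as an interaction. Of the members, 9 were tested for each stimulus and edgeR called none. Among all genes edgeR called 0% of 11161 with IL-1α and TNF-α, 0.00881% of 11352 with C1Q and C5 (1 gene, not a member), 0% of 12104 with IL-1β and IL-6 and 0% of 11967 with TGF-β2. At an unadjusted p under 0.05 there were 297, 421, 552 and 442 genes, in each case fewer than a share of 0.05 of those tested, and DESeq2 called 0, 5, 19 and 17. Among the members 0, 0, 1 and 1 had an unadjusted p under 0.05, and DESeq2 called 0, 0, 0 and 1. With IL-1β and IL-6 it was Cdkn1c (log2 difference 1.65, SE 0.63, edgeR p 0.0157, adjusted p 0.904). With TGF-β2 it was Ccnd3 (edgeR adjusted p 1.00), which DESeq2 called at 0.0441, and whose counts in the 4 groups lay in ES-astrocyte control A (639), in 3 of 4 ES-astrocyte libraries with TGF-β2 (179 together, 23.6 CPM in A) and in ES-motor neuron TGF-β2 C (38). Without the libraries of low long-gene share the log2 difference of Ccnd3 was 1.07, and that of Cdkn1c with IL-1β and IL-6 was 0.96, and neither passed.

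The log2 differences of the stimulus effects, in the order used above and with an adjusted p of at least 0.904, were Ccnd1 (−0.57, −1.51, −0.49 and −0.91), Ccnd2 (0.36, 1.03, −0.49 and 1.5), Cdk4 (0.63, −0.08, 0.86 and 0.19), Cdk6 (1.24, 1.73, −0.21 and 1.37) and Cdkn1a (0.16, −0.78, 0.65 and −1.19). Further ones were Cdkn1b (−0.17, 0.04, −0.79 and 0.54), Cdkn1c (0.88, 0.19, 1.65 and 1.20), Rb1 (0.07, −0.18, 0.44 and −0.13), Ccnd3 (6.39, 0.88, not tested and 9.24) and Cdkn2c (not tested, not tested, 1.68 and not tested). Those of Ccnd3 have no meaning as a size, since its ES-motor neuron control was at 0 in all 4 libraries, and with C1Q and C5 the stimulated group was too. The same holds for Cdkn2c, at 0 in all 4 ES-motor neuron control libraries and with 1 count in those with IL-1β and IL-6.

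Annotated genes overlap the exons of 8 of the 10 members on the other strand, and Cdkn1b and Cdkn2c have no such partner. The strand setting of the counts is not given, so that reads in the shared exons cannot be assigned. LTO1, over Ccnd1, had a median of 230 CPM in ES-astrocytes, against 7.32 in ES-motor neurons, and Gm43126, over Ccnd2, had 95 and 0. Tspan31, over Cdk4, had medians of 118 and 98.8 CPM. For each member the gene with the most similar level was sought among 13226 genes over the 31 libraries with at least 20% of the median total, by Pearson's r of log2(CPM + 1). These libraries share the cell types and treatments, so that r is a description. The overlapping partners came out for Ccnd1 (LTO1, r 0.964), Ccnd2 (Gm43126, r 0.976) and Cdkn1c (Gm44732, r 0.802).

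For the other members the most similar genes were Ube2s for Cdk4 (r 0.924), Fabp7 for Cdk6 (r 0.940), Pea15a for Cdkn1a (r 0.841), Hsf2 for Cdkn1b (r 0.963), Sall4 for Rb1 (r 0.771), Zbtb3 for Ccnd3 (r 0.830) and Rmi2 for Cdkn2c (r 0.747), each over the same 31 libraries.

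Other genes of the pathway were taken from lists written from general knowledge, and the counts refer to the cell types over the 5 treatments, where 14.9% of all genes tested were called and 11% were called lower. Between the controls these were 2.24% and 1.67%. Of 20 proliferation markers all were tested and 20 were called lower in ES-motor neurons (median log2 fold change −6.47, beside −0.21 over all genes). In median CPM, Birc5 stood at 185 in ES-astrocytes, against 0 in ES-motor neurons (log2 fold change −7.47, SE 0.43, edgeR adjusted p 4.5e-19). Top2a stood at 421 and 1.92 (log2 fold change −6.94, SE 0.40) and Rrm2 at 598 and 11 (log2 fold change −5.75, SE 0.34). Between the controls 16 of 20 were called lower (median −6.0).

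Of 18 other cyclins, kinases and inhibitors of the G1 to S transition, 17 were tested and 6 were called, all lower, beside 14.9% of all genes called (median −0.98). Cks1b, a kinase subunit, had medians of 557 and 128 CPM in ES-astrocytes and ES-motor neurons (log2 fold change −2.01, SE 0.18), Ccna2, cyclin A2, 135 and 34.6 CPM (log2 fold change −2.25, SE 0.22), and Ccne2, cyclin E2, 119 and 19.9 CPM (log2 fold change −2.47, SE 0.29). Of 20 genes of the pocket proteins, E2F factors and the MuvB complex, 20 were tested and 7 were called, all lower (median −1.05). Tfdp2, a partner of E2F factors, had medians of 124 and 5.96 CPM (log2 fold change −3.82, SE 0.32), and E2f1 (6.50 and 0 CPM, log2 fold change −5.74, SE 0.97) and E2f7 (1.82 and 0 CPM, log2 fold change −6.59, SE 1.13) were called lower from low levels. List genes near 0 in ES-motor neurons, such as E2f7 (at most 0.102 CPM), passed the filter through ES-astrocytes alone. They could therefore only come out lower. Between the controls 3 of 14 and 1 of 15 tested genes of these lists were called lower (medians −1.24 and −0.48).

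Cdkn1a is itself a p53 target and is not in the list of p53 and its other targets. Of the 22 genes of that list, 21 were tested and 7 were called, all lower, beside 11% of all genes called lower (median −0.55). Btg2 had medians of 101 and 10.7 CPM in ES-astrocytes and ES-motor neurons, Ccng1 167 and 46.4 CPM (log2 fold change −1.99, SE 0.29), and Gtse1 3.62 and 0 CPM. Gtse1, at most 0.318 CPM in ES-motor neurons, passed the filter through ES-astrocytes alone and could only come out lower. Of 24 genes of the mitogen signals above the D cyclins, 20 were tested, 10 were called lower and 3 higher (median −1.49). Tcf7l2, a transcription factor of the Wnt pathway, had medians of 90.0 and 0 CPM, and Dusp6, a phosphatase of the ERK pathway, 79.9 and 9.10 CPM (log2 fold change −2.74, SE 0.37). Jun, a part of AP-1, went the other way, with medians of 4.37 and 50 CPM (log2 fold change 2.86, SE 0.48). Between the controls 1 of 18 and 2 of 14 tested genes of these lists were called lower (medians −0.39 and −0.85), beside 1.67% of all genes. No gene of these 5 lists was called by edgeR in a comparison of a stimulus with its control.

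Promoter sequences from RefSeq (GRCm38.p6), from 250 bases before to 50 after the start, were found for 6 of the 10 members in 9 windows. None was found for Ccnd1, Ccnd2, Cdkn1c and Rb1. Both strands were searched for an E2F motif (TTTCGCGC or TTTGGCGC, in 0.813% of 32851 promoters of this length), the CHR element (TTTGAA, in 17.9%), the GC box (GGGCGG, in 35.7%) and the E-box CACGTG (in 7.15%). The E2F and CHR letters occurred in 0 of the 9 windows. Sequences of Cdk4 and Cdk6 are shown since these kinases share their cyclins, and Cdk6 was called between the cell types while Cdk4 was not. Capitals mark the motifs. Cdk4 (chr10:127063285-127063584, plus strand) holds 4 E-boxes, a number that 0.0244% of promoters (8 of 32851) reach, counted after the 4 were seen, and 3 GC boxes, of which 2 share a base. Cdk6 (chr5:3343643-3343942, plus strand) holds 1 E-box and no GC box. The letters CACGTG read the same on both strands, and no E-box shares a base with a GC box. A match is a description of the letters and not a site.
Cdk4: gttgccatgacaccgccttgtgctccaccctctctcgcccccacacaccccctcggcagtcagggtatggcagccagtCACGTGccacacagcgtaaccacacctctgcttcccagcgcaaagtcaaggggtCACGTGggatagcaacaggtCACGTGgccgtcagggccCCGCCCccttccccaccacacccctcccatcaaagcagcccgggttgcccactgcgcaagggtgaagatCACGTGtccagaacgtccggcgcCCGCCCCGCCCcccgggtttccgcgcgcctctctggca
Cdk6: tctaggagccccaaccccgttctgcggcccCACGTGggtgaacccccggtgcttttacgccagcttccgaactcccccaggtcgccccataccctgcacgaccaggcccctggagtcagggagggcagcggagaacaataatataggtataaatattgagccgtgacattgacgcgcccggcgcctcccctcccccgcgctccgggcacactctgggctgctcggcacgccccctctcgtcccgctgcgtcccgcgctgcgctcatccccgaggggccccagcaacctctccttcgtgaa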

How the data were processed

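The authors mapped paired-end reads with STAR and used DESeq2 (no version given), and the deposited table holds raw counts per Ensembl gene, with no normalization and 1 column per library. They annotated genes by Ensembl ID through biomaRt. Their counting tool, strand setting, annotation release and genome build were not given in the sources used here. All 40 columns were assigned to their samples, and 0 pairs of columns were identical. Symbols (55141 genes) and coordinates came from GENCODE M21 on GRCm38.

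Each comparison was fitted with edgeR 4.0.16 in R 4.3.3 on its own libraries (filterByExpr on the groups, TMM, glmQLFit with robust estimation, glmQLFTest), with the Benjamini-Hochberg adjustment over all genes tested. The SE is the log2 fold change divided by the square root of F. DESeq2 1.42.0 (alpha 0.1), RLE scaling, no filter, no minimum fold, the replicate letter as a block, left-out libraries and, chosen after seeing the data, leaving out libraries of low long-gene share were the alternatives. Also chosen after seeing the data were the ratios of summed counts without a library, the comparison of levels with a 0 set to its limit, treatment means without a library, shares of genes that do not overlap at the long-gene limit or for a stimulus, RLE scaling and left-out shallow libraries for interactions, and left-out libraries for a stimulus alone. Members that did not pass the filter were tested by exact two-sided permutation. A group at 0 was set to 3 counts for a lower bound on the fold, and counting intervals are Clopper-Pearson at 95%. Tables were made in Python 3.11.15 (numpy 2.4.6, pandas 2.3.3), permutation tests with scipy 1.17.1 and plots with matplotlib 3.10.9.

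Each comparison names all 10 members or says which were not tested, with more values for those with an unadjusted p under 0.05, and names of each pathway list its counts, the 3 genes of smallest p over the 5 treatments and any gene called for a stimulus. For each member the gene of highest r was named. Sox9 and the genes that overlap members were chosen after their values were seen. The members and lists were chosen with earlier results of these data known.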

Additional observations from a re-analysis of the deposited data

Results flagged for a closer look

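A library far from the other 3 of its group was looked for in each member and group, by the gap to its neighbour over the range of the group. Of 94 groups with any spread, 21 had such a library, and chance gives about 1 in 20 groups. In 6 of the 21 only 1 library was above 0, where the gap equals the range, and the groups share libraries, so that the number is no test. The part of library composition or depth in these values was not tested.

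ES-astrocyte control A, the library of lowest long-gene share, was apart in 5 members. It had 68.5 CPM of Ccnd3 (others 0), 2172 of Cdk4 (others 403 to 641), 186 of Cdkn1a (66.7 to 77.3), 270 of Cdkn1c (103 to 115) and 24.0 of Rb1 (79.6 to 86.0). The other libraries of low long-gene share gave 1272 CPM of Cdk4 in ES-astrocyte IL-1α with TNF-α B (others 490 to 580) and 176 CPM of Cdkn1a in ES-astrocyte TGF-β2 A (105 to 110). Of this kind too, and shallow as well, ES-motor neuron IL-1α with TNF-α A had 5.92 CPM of Ccnd3 (others 0) and 148 of Cdkn1c (15.1 to 30.2). The Ccnd3 value there was 1 count, where 3 would be 17.8 CPM. ES-motor neuron IL-1β with IL-6 A had 11.6 CPM of Ccnd3 (others 0), 1044 of Cdk4 (208 to 274), 9.28 of Cdk6 (0 to 0.399) and 0.0636 of Cdkn2c (others 0), the last being 1 count.

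In shallow ES-motor neuron libraries, Ccnd1 was at 34.7 CPM in IL-1α with TNF-α D (others 0 to 2.16), and Cdkn1b at 67.6 CPM in C1Q with C5 A (835 to 945), which is 1 count where 3 would be 203 CPM. Elsewhere Ccnd3 was at 6.26 CPM in ES-astrocyte IL-1β with IL-6 B and at 26.7 CPM in ES-motor neuron TGF-β2 C (others 0 in both groups). Cdkn2c was at 16.1 CPM in ES-astrocyte control B (0.686 to 2.14) and 12.9 CPM in ES-astrocyte TGF-β2 B (0 to 0.820). Rb1 was at 64.3 CPM in ES-astrocyte IL-1β with IL-6 D (37.3 to 38.8) and 82.5 CPM in ES-astrocyte TGF-β2 C (27.1 to 30.3).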

How the results depend on the processing

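The number of members called in the control comparison was 4, and 3 to 5 under the alternatives (3 with any library left out, 5 by DESeq2). Over the 5 treatments it was 6, with 6 in the fits without replicate A, B, C or D, and 3 with IL-1α and TNF-α alone and 3 with IL-1β and IL-6 alone, where fewer libraries were tested. It was also 3 with each stimulus alone without its shallow libraries or without those of low long-gene share (Ccnd1, Ccnd2 and Cdk6), in 7 fits added after seeing the data. It was 7 with no minimum fold, since Cdk4 came in. In the 8 stimulus comparisons and 4 interactions it was 0 in each fit with a library or replicate left out, and 1 (Ccnd3) by DESeq2 for the interaction with TGF-β2, for which the cause was not tested.

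Over the alternatives of the control comparison the log2 fold changes ran from −8.01 to −7.12 for Ccnd2, −5.74 to −4.63 for Ccnd1 and −7.61 to −6.01 for Cdk6, with adjusted p of at most 0.0101, 0.0246 and 0.0493. For Cdkn1c the adjusted p ran from 0.00146 to 0.203, and it was 0.0997 with no filter.

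The sign of Cdkn1b was unstable. In the control comparison its log2 fold change was −0.05, but 0.0167 with no filter, 0.54 with the replicate letter as a block, 0.26 without the shallow library, and −0.43 to 0.67 with a library left out (0.67 and 0.26 without ES-astrocyte B and D, 0.10 and 0.26 without ES-motor neuron B and C). Over the 5 treatments it was −0.11, but 0.00562 without shallow libraries, 0.0821 with C1Q and C5 alone, 0.58 with TGF-β2 alone, −0.83 with IL-1β and IL-6 alone (−1.96 without its shallow libraries, the furthest), and −0.31 to 0.12 without a replicate letter (0.12 without A). With a stimulus alone it was 0.33 (C1Q and C5) and 0.45 (TGF-β2) without shallow libraries, and 0.23 (TGF-β2) without those of low long-gene share. None of these passed, and the cause was not tested.

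Other signs also turned with a stimulus alone in these added fits. With IL-1β and IL-6 without shallow libraries, which leaves 2 of ES-motor neurons, it was 1.89 for Ccnd3, 0.20 for Cdk4, 0.0366 for Cdkn1c and 0.0385 for Rb1. With TGF-β2 Ccnd3 was at 0.0953 without shallow libraries and 1.05 without those of low long-gene share. None passed, and the cause was not tested.

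Genes called over the whole table in the control comparison numbered 228, but 41 with the block and 433 with all 40 libraries in the fit, and 767 by DESeq2. With TGF-β2 in ES-motor neurons it was 1, but 4 with the block, 5 with no filter, 17 by DESeq2 and 0 to 2 with a library left out. For the interaction with C1Q and C5 it was 1, but 5 by DESeq2, 3 with no filter, 0 to 4 without a replicate letter, 0 without shallow libraries and 3 without those of low long-gene share. For the interactions with IL-1α and TNF-α and with TGF-β2 it was 0, but 3 in the last of these fits. Correlations between libraries of the same letter across the groups of a comparison ran from −0.229 to 0.427, and the letter is not shown to mark a shared source for the block.

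Not run were fits without shallow libraries for ES-astrocytes, which have none, and for IL-1α with TNF-α against control in ES-motor neurons, alone between the cell types and in the interaction, since all 4 ES-motor neuron libraries with it are shallow, and fits without libraries of low long-gene share where a comparison has none. Interactions had no fit with no minimum fold or with all 40 libraries, and a treatment alone had only fits with libraries left out beside its own. Plate could not be a term, since it follows the stimulus. Depth limits ES-motor neurons most: a gene of low level there can be missed in the shallow libraries, with limits of up to 203 CPM. The reads carry no molecular identifiers that the sources name, genome build and strand of the counts are not given, and protein levels were not measured in these libraries.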
